A study of Homo sapiens with 12 samples.

Results

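A group of 10 genes of the early transcriptional response was examined in 501Mel cells, a human melanoma cell line with the activating BRAF-V600E change. They were FOS, FOSB, FOSL1, FOSL2, JUN, JUNB, EGR1, EGR2, IER3 and MYC, chosen by symbol as 10 of the 56638 gene symbols of the count table. All 10 passed the filter on low counts and were among the 16080 genes tested. Cells were exposed for 48 h to DMSO as vehicle, to vemurafenib (Vem, 1 µM), a kinase inhibitor of mutant BRAF, to resveratrol (RSV, 5 µM), a plant polyphenol that the study used as an antagonist of the aryl hydrocarbon receptor AhR, to both RSV (5 µM) and Vem (1 µM), to the dioxin TCDD (10 nM), the canonical AhR agonist, or to both RSV (5 µM) and TCDD (10 nM in the protocol, 1 nM in the label of that group). Each of the 6 groups had 2 RNA-seq libraries, 12 in all. Nothing in the labels ties these to separate cultures, so the p-values measure the spread between libraries, which may be technical. The line is a single cell line in culture, and a gene's level in bulk RNA cannot tell fewer cells with the transcript apart from less transcript per cell.

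AP-1 is a family of dimers made of a FOS-type and a JUN-type protein that binds DNA and switches on genes of growth, migration and stress. In BRAF-mutant melanoma the kinase cascade from BRAF through MEK to ERK is permanently switched on, and ERK both stabilises FOS-family proteins and phosphorylates the ternary complex factors that, with serum response factor, activate FOS and EGR1 at CArG boxes. EGR1 and EGR2 are zinc-finger factors of the same early wave, IER3 is a small survival protein, and MYC drives ribosome production and cell growth as a dimer with MAX.

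Gene counts per library ranged from 8378655 to 25076925, and RNA integrity numbers from 8.6 to 9.7. The RSV+Vem libraries had the 2 lowest integrity numbers (8.7 and 8.6, against at least 9.1 in the other 10), and the second of them had the lowest depth. The melanocytic markers MITF, SOX10, PMEL, MLANA, TYR, TYRP1 and DCT had at least 4546 counts each in every library. Of the markers of other cell types, PECAM1 was at 0 in 12 of 12 libraries, CD3E and KRT5 in 11, and COL3A1 and KRT14 in 10, and no leukocyte, keratinocyte or endothelial list summed to more than 2.89 CPM (read counts scaled to library size) in any library. The 4 leukocyte markers summed to 2.83 to 2.89 CPM with RSV against 0.283 to 0.405 CPM in vehicle, mostly LYZ, and the 5 fibroblast markers, mostly LUM, to 31.5 to 39.4 CPM with TCDD against 12.9 to 16.1 CPM in vehicle and 6.46 to 7.02 CPM with Vem. The 7 melanocytic markers summed to 48200 to 51600 CPM with Vem, 19400 to 20500 CPM in vehicle and 11100 to 12300 CPM with RSV. The part of these sums in the results was not tested.

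Proximal promoters are shown for EGR1, EGR2 and FOSL2, because they hold a CArG box or a TRE, elements that early-gene regulators bind, and for JUN and JUNB, the JUN genes that differed from FOS with Vem. The windows run from 250 bases before to 50 bases after the start, on GRCh38.p14 from RefSeq, and 7 of the 10 genes matched an entry (not FOSL1, IER3 or MYC). Capitals mark every match, on either strand, to the CArG box, the CRE (TGACGTCA), the TRE bound by AP-1 (TGANTCA), the E-box bound by MYC (CACGTG), the core of the xenobiotic response element XRE bound by AhR (GCGTG) and the ETS site (CCGGAAGT). The window of EGR1 is chr5:138465229-138465528 on the + strand, that of EGR2 chr10:62816317-62816616 on the - strand (1 of 3 EGR2 windows), that of FOSL2 chr2:28392608-28392907 on the + strand, that of JUN chr1:58783998-58784297 on the - strand and that of JUNB chr19:12791236-12791535 on the + strand.
EGR1: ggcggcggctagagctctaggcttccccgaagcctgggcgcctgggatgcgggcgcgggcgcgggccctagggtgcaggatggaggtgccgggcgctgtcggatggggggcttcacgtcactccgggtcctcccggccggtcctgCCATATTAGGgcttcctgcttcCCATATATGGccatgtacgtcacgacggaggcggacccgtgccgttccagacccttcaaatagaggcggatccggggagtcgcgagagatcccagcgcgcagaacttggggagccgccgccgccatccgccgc
EGR2: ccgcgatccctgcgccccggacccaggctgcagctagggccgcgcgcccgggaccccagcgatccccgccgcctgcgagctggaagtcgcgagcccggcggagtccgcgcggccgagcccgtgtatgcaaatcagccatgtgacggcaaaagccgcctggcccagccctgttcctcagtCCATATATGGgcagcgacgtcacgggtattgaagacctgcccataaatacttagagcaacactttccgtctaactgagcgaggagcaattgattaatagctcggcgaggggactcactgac
FOSL2: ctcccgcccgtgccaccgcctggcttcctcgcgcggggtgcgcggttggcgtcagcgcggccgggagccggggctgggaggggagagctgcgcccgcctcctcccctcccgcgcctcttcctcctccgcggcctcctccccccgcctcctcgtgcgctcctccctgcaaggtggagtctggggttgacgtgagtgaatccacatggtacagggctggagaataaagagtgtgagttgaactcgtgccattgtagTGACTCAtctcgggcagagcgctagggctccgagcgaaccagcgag
JUN: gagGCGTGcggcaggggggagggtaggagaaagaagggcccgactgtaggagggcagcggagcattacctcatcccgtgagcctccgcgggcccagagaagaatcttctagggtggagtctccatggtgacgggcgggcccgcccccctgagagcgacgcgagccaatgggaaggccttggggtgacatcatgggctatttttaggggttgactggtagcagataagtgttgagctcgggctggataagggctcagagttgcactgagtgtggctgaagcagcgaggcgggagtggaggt
JUNB: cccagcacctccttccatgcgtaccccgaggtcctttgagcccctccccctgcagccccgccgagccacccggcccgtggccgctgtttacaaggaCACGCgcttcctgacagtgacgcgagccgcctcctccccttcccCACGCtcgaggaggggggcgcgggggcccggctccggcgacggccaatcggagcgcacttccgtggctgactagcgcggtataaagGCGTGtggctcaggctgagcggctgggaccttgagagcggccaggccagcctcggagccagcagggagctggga

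EGR1 held 2 CArG boxes, starting at -105 and -83 from its start, and this EGR2 window held 1 at -71. The windows of FOS, FOSB, FOSL2, JUN and JUNB held no CArG box, and bases beyond the windows were not searched. Over 35116 promoter windows of the same length, 1.29% held a CArG box. FOSL2 held a TRE at 5, an element found in 7.71% of windows. JUN held 1 XRE core and JUNB 3, and FOS and FOSB held 1 each, against 36.5% of all windows with at least 1. Another EGR2 window held the only E-box of the set, found in 7.26% of windows, and neither the CRE (1.85% of windows) nor the ETS site (4.14%) matched in any window of these genes. These matches describe letters and not binding.

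Levels are given as CPM scaled by edgeR's TMM factors. To compare genes, levels were divided by the kilobases of exon merged over all annotated transcripts, such as 6109 bases for MYC. This length can exceed that of the transcript made, so the order of genes depends on the annotation. On this scale IER3 was the highest of the 10 in vehicle cells, at a mean of 99.2 CPM per kb. It was followed by EGR1 at 32.5, FOS at 16.8, MYC at 16.3 and JUNB at 16.0. FOSL1 (1.09 CPM per kb) and FOSB (0.424 CPM per kb) were the lowest. FOSL1 and FOSB values therefore rest on few reads, with 43 and 48 FOSL1 counts and 61 and 40 FOSB counts in the vehicle libraries.

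**Figure D1:**
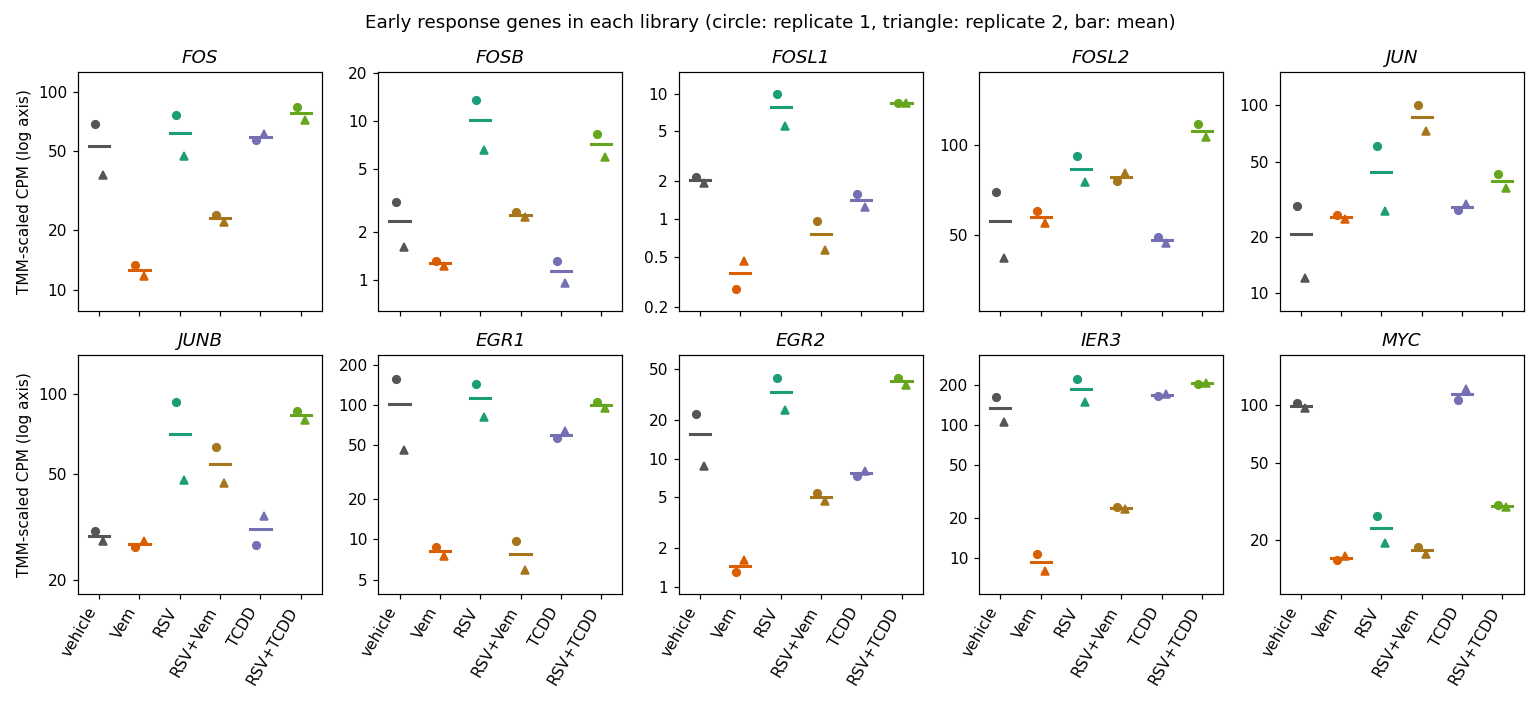
Level of each of the 10 genes (TMM-scaled CPM, log axis) in the 12 libraries by treatment, with a circle for replicate 1, a triangle for replicate 2 and a bar for the mean of the 2. FOS, FOSL1, EGR1, EGR2 and IER3 are lowest in the Vem or RSV+Vem libraries, MYC is low in every library with Vem or RSV, and JUN is highest in RSV+Vem.

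The 2 libraries of a group differed in one direction for these genes in vehicle and in RSV. In vehicle, 10 of 10 genes were higher in replicate 1 than in replicate 2, with a median ratio of 1.74 and a range of 1.06 to 3.40, while 50.4% of all tested genes were higher in replicate 1 and their median ratio was 1.00. In RSV, 10 of 10 were again higher in replicate 1, with a median ratio of 1.77 and a range of 1.23 to 2.23, against 48.2% of all tested genes. EGR1 differed most, with 157 CPM in the first vehicle library and 46.3 CPM in the second. Of 28 other early response genes, 18 were higher in the first vehicle library and 27 in the first RSV library. The labels give no batch to which these libraries could be assigned, so values without one of these libraries are given below as ranges or where a call was lost.

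**Figure D2:**
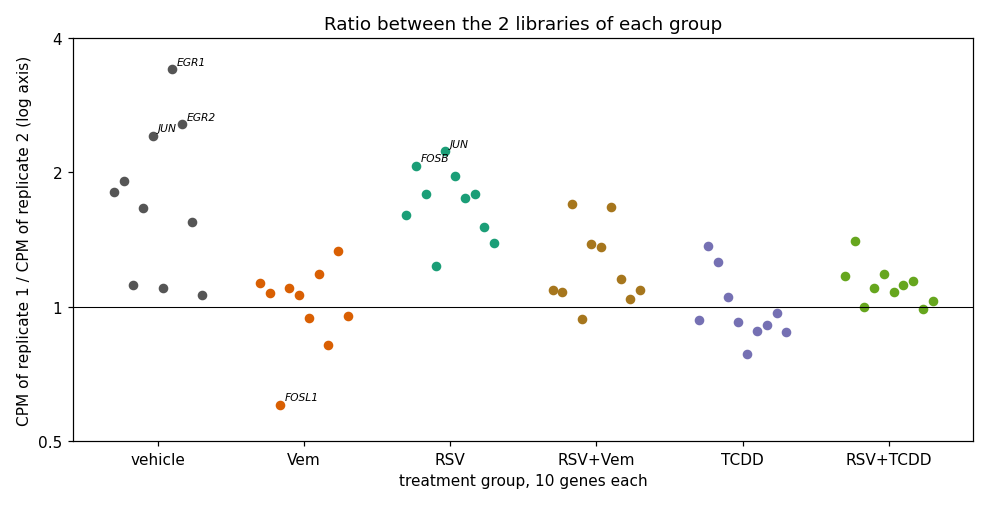
Ratio of the CPM of replicate 1 to that of replicate 2 (log axis) for each of the 10 genes in the 6 groups, 1 point per gene in the order FOS to MYC. All 10 vehicle points and all 10 RSV points lie above 1, up to 3.40 for EGR1, whereas the points of the TCDD group lie between 0.783 and 1.37.

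The comparison of Vem with vehicle asked how these ERK-linked genes stood after BRAF inhibition. Of the 10 genes, 6 fell, by 4.22-fold to 14.2-fold, and none rose. The 6 were FOS, FOSL1, EGR1, EGR2, IER3 and MYC, and FOSB, FOSL2, JUN and JUNB did not pass the test. Over all tested genes 52.4% were called in this comparison, 27.0% lower and 25.4% higher. The median log2 fold change of the 10 was -2.27, against -0.03 over all tested genes. Here and throughout, calls are genes with a Benjamini-Hochberg adjusted p below 0.05 in the quasi-likelihood test of edgeR. When libraries were scaled to the ERCC spike-in RNAs, the median of all tested genes shifted to -0.68 with Vem, -0.17 with RSV, -0.51 with TCDD, -0.52 for RSV+Vem against RSV, -0.70 for RSV+TCDD against TCDD and -1.02 for RSV+TCDD against RSV. The share of counts in control sequences, ERCC RNAs among them, also differed within groups. It was 0.0389% and 0.0903% in the RSV+Vem libraries and 0.063% and 0.0936% in the RSV+TCDD libraries. In vehicle it was 0.0316% and 0.031%, and with Vem 0.0442% and 0.0447%. The part of these gaps in the spike-in results was not tested.

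Among the FOS family, FOS (chr14:75745529-75748933 on hg19, + strand), the prototype partner of JUN, was at 68.8 and 38.0 CPM in vehicle and at 13.4 and 11.8 CPM with Vem. The groups did not overlap, and the log2 fold change was -2.08 (SE 0.25, adjusted p = 3.28e-06, edgeR). FOSL1 (chr11:65659520-65668044, - strand), which encodes FRA-1, an ERK-stabilised partner of JUN linked to invasive states of melanoma, had 43 and 48 counts in vehicle and 4 and 6 counts with Vem, a log2 fold change of -2.47 (SE 0.46, adjusted p = 0.0003, edgeR). FOSB (chr19:45971253-45978437, + strand) was at 3.09 and 1.62 CPM in vehicle and 1.32 and 1.23 CPM with Vem, with a log2 fold change of -0.85 (SE 0.44, adjusted p = 0.12, edgeR). The groups did not overlap, and under spike-in scaling FOSB was called, at -1.52 (adjusted p = 0.034). FOSL2 (chr2:28615315-28640184, + strand), which encodes FRA-2, overlapped between the groups, at 69.2 and 41.6 CPM in vehicle and 59.9 and 54.5 CPM with Vem. Its log2 fold change was 0.05 (SE 0.17), and -0.60 under spike-in scaling.

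The JUN genes did not follow FOS. JUN (chr1:59242517-59249720, - strand), the prototype of its family, was at 29.0 and 12.1 CPM in vehicle and 26.1 and 24.7 CPM with Vem, so the Vem libraries lay between the vehicle ones, with a log2 fold change of 0.32 (SE 0.34, adjusted p = 0.444, edgeR) that became -0.34 under spike-in scaling. JUNB (chr19:12902300-12904129, + strand), a JUN paralogue with weaker activity, was at 30.7 and 28 CPM in vehicle and 26.6 and 28.1 CPM with Vem.

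Both EGR genes fell strongly. EGR1 (chr5:137801168-137804992, + strand) was at 157 and 46.3 CPM in vehicle and at 8.76 and 7.45 CPM with Vem, so that even the lower vehicle library stood far above both Vem libraries. Its log2 fold change was -3.64 (SE 0.44, adjusted p = 3.81e-06, edgeR), and it lay between -4.26 and -2.51 over the 12 fits without 1 library. EGR2 (chr10:64571756-64578927, - strand) was at 22.4 and 8.74 CPM in vehicle and 1.32 and 1.61 CPM with Vem, a log2 fold change of -3.39 (SE 0.45, adjusted p = 9.94e-06, edgeR).

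IER3 fell by about as much as EGR1. It was at 163 and 105 CPM in vehicle and 10.7 and 8.07 CPM with Vem (chr6:30710976-30712325, - strand), a log2 fold change of -3.83 (SE 0.22, adjusted p = 1.27e-09, edgeR). MYC was at 103 and 96.7 CPM in vehicle and 15.6 and 16.4 CPM with Vem, and these were the closest replicates among the genes that fell. Its log2 fold change was -2.63 (SE 0.14, adjusted p = 5.43e-10, edgeR). The calls of all 6 genes held in each of the 12 fits that left out 1 library, with log2 fold changes of -2.43 to -1.59 for FOS, -2.85 to -2.14 for FOSL1, -3.91 to -2.58 for EGR2, -4.09 to -3.48 for IER3 and -2.67 to -2.59 for MYC.

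RSV alone was compared with vehicle to see how the AhR antagonist by itself stood against untreated cells. With RSV 7 of the 10 genes rose and MYC fell. Over all tested genes 40.9% were called, 20.5% higher and 20.4% lower. FOSB and FOSL1 rose most, by 4.32-fold and 3.75-fold, followed by JUNB, EGR2, JUN, FOSL2 and IER3. The median log2 fold change of the 10 was 0.85, against -0.00 over all tested genes. The calls of JUN, EGR2 and IER3 did not hold with DESeq2 or with robust dispersion estimation, under each of which 5 genes in all were called. Under spike-in scaling 3 were called, FOSB, FOSL1 and MYC.

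FOSB was at 13.6 and 6.57 CPM with RSV against 3.09 and 1.62 CPM in vehicle. The lower RSV library was above the higher vehicle library, and the log2 fold change was 2.11 (SE 0.33, adjusted p = 0.000114, edgeR). FOSL1 was at 9.95 and 5.57 CPM with RSV against 2.18 and 1.94 CPM, a log2 fold change of 1.91 (SE 0.27, adjusted p = 4.62e-05, edgeR). JUNB was at 93.2 and 47.6 CPM with RSV against 30.7 and 28 CPM, a log2 fold change of 1.26 (SE 0.22, adjusted p = 0.000346, edgeR). For these 3 genes the call held in each of the 12 fits without 1 library, at 1.5 to 2.61 for FOSB, 1.43 to 2.27 for FOSL1 and 0.70 to 1.67 for JUNB.

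FOSL2, at 91.6 and 74.8 CPM with RSV against 69.2 and 41.6 CPM in vehicle, had a log2 fold change of 0.59 (SE 0.17, adjusted p = 0.0108, edgeR). JUN overlapped between the groups, at 60.7 and 27.3 CPM with RSV and 29.0 and 12.1 CPM in vehicle, with a log2 fold change of 1.11 (SE 0.33, adjusted p = 0.0132, edgeR). EGR2, at 43.0 and 24.0 CPM with RSV against 22.4 and 8.74 CPM, did not overlap and had a log2 fold change of 1.12 (SE 0.30, adjusted p = 0.00725, edgeR). Each of these 3 calls was lost without the second vehicle library, where the log2 fold changes were 0.27 for FOSL2, 0.60 for JUN and 0.58 for EGR2, and without the first RSV library, where they were 0.43, 0.42 and 0.64.

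IER3 was at 224 and 148 CPM with RSV and 163 and 105 CPM in vehicle, overlapping groups with a log2 fold change of 0.47 (SE 0.18, adjusted p = 0.0453, edgeR). Its call was lost in 6 of the 12 fits without 1 library, with log2 fold changes of 0.19 without the second vehicle library, 0.14 without the first RSV library and 0.47 without either Vem or either TCDD library. FOS, at 76.5 and 47.7 CPM with RSV and 68.8 and 38.0 CPM in vehicle, and EGR1, at 143 and 81.5 CPM with RSV and 157 and 46.3 CPM in vehicle, overlapped between the groups. Their log2 fold changes of 0.22 (SE 0.22) and 0.14 (SE 0.36) did not pass the test.

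MYC was the only one of the 10 called lower with RSV. It was at 26.6 and 19.2 CPM with RSV against 103 and 96.7 CPM in vehicle, a 4.36-fold fall with a log2 fold change of -2.12 (SE 0.13, adjusted p = 2.91e-08, edgeR) that lay between -2.38 and -1.90 without 1 library. With RSV, MYC was therefore low in libraries in which FOSB, FOSL1 and JUNB were high.

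**Figure D3:**
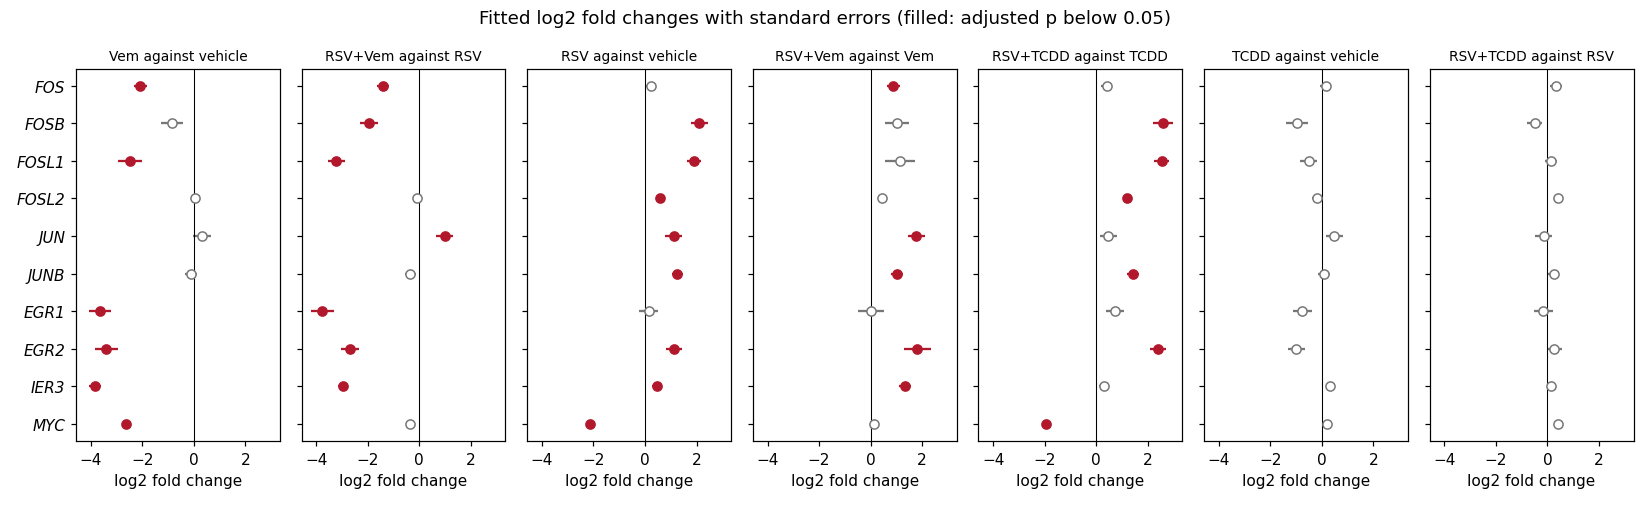
Log2 fold change (horizontal axis, points with standard error bars) of each of the 10 genes in 7 pairwise comparisons, filled where the adjusted p was below 0.05. In all, 6 points are filled on the lower side for Vem against vehicle, and MYC is the only filled lower point in the comparisons of RSV with vehicle and of RSV+TCDD with TCDD.

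RSV was added to Vem to compare the combination with each compound alone. Against Vem, 5 of the 10 genes were higher in RSV+Vem and none lower, where 37.9% of all tested genes were called (19.2% higher, 18.7% lower). Against RSV, 6 were lower and JUN was higher, where 24.4% of all tested genes were called (11.2% higher, 13.1% lower). The medians of the 10 were 1.02 and -1.68 on the log2 scale. FOS, EGR2 and IER3 were called both times, above Vem and below RSV, whereas JUN was called above both, the second call being the less stable. Under spike-in scaling 2 of the 5 calls against Vem held, JUN and EGR2, and JUNB (1.05, adjusted p = 0.247), IER3 (1.31, adjusted p = 0.0983) and FOS (0.85, adjusted p = 0.438) were not called at similar log2 fold changes.

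JUN was at 99.7 and 72.4 CPM in RSV+Vem, the 2 highest values of the 12 libraries. These are also the libraries with the lowest RNA integrity, whose part in the RSV+Vem values was not tested. Against Vem alone (26.1 and 24.7 CPM) its log2 fold change was 1.77 (SE 0.33, adjusted p = 0.000554, edgeR). Against RSV alone (60.7 and 27.3 CPM) it was 0.98 (SE 0.32, adjusted p = 0.0327, edgeR), a call that was lost without the second RSV library (0.51), without the first RSV+Vem library (0.72), without either Vem library (0.98 each), with spike-in scaling (0.48, adjusted p = 0.517), with DESeq2 (adjusted p = 0.145) and with robust dispersion estimation (adjusted p = 0.192). Per kilobase of merged exon, JUN stood at a mean of 23.7 CPM per kb in RSV+Vem, above FOS at 7.23 and FOSL1 at 0.403. In vehicle JUN stood at 5.66, below FOS at 16.8.

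JUNB was at 63.1 and 46.4 CPM in RSV+Vem, above both Vem libraries, with a log2 fold change of 1.01 (SE 0.23, adjusted p = 0.0025, edgeR), and it overlapped with RSV. FOS was at 24.0 and 22.0 CPM, between the Vem and the RSV levels, 0.88 above Vem (SE 0.26, adjusted p = 0.0143, edgeR), and against RSV it fell by 1.42 (SE 0.24, adjusted p = 0.000436, edgeR) on the log2 scale. FOSL1, at 0.958 and 0.562 CPM, fell by 3.22 on the log2 scale against RSV (SE 0.34, adjusted p = 6.31e-06, edgeR), and was not called against Vem (1.15, SE 0.58). FOSB, at 2.66 and 2.47 CPM, fell by 1.95 against RSV (SE 0.35, adjusted p = 0.000768, edgeR). FOSL2, at 75.7 and 80.6 CPM, did not pass against Vem (0.45, SE 0.17, adjusted p = 0.0504, edgeR) although the groups did not overlap, and DESeq2 (adjusted p = 0.0393) and 4 of the 12 fits without 1 library called it. Against RSV it overlapped and was not called.

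EGR1 overlapped with Vem alone, at 9.74 and 5.85 CPM in RSV+Vem. It fell by 3.77 on the log2 scale against RSV (SE 0.44, adjusted p = 2.04e-05, edgeR), a 13.6-fold difference, and the difference from Vem was 0.01 (SE 0.51). EGR2 was at 5.43 and 4.72 CPM, above Vem by 1.81 (SE 0.53, adjusted p = 0.0129, edgeR), a call that was lost without either Vem library (1.67 and 1.96) and without the first RSV+Vem library (1.68). FOS lost its call against Vem without the same 3 libraries, at 0.96, 0.79 and 0.80. With robust dispersion estimation neither FOS (adjusted p = 0.0699) nor EGR2 (adjusted p = 0.0935) was called against Vem. Against RSV, EGR2 fell by 2.70 on the log2 scale (SE 0.36, adjusted p = 5.9e-05, edgeR).

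IER3 was at 24.3 and 23.3 CPM in RSV+Vem, above both Vem libraries by 1.34 (SE 0.23, adjusted p = 0.000297, edgeR) and against RSV it fell by 2.96 (SE 0.20, adjusted p = 5.75e-08, edgeR) on the log2 scale. MYC was at 18.4 and 16.9 CPM, close to Vem alone (15.6 and 16.4 CPM) and to RSV alone (26.6 and 19.2 CPM). Over the fits without 1 library the other called values against RSV lay at -1.72 to -1.04 for FOS, -2.39 to -1.34 for FOSB, -3.76 to -2.75 for FOSL1, -4.26 to -3.31 for EGR1, -3.06 to -2.22 for EGR2 and -3.23 to -2.63 for IER3, and all of them kept their calls. Neither MYC difference was called, at 0.15 (SE 0.15) against Vem and -0.36 (SE 0.14) against RSV.

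The interaction of RSV and Vem asked whether the combined change differed from the sum of the 2 single changes on the log2 scale. Of the 10 genes 2 were called, both with a combined level above that sum, where 22.7% of all tested genes were called (12.0% higher, 10.7% lower). For MYC the interaction was 2.27 (SE 0.20, adjusted p = 3.04e-06, edgeR), MYC being 6.21-fold lower with Vem, 4.36-fold lower with RSV, and in RSV+Vem not called against either. For IER3 it was 0.87 (SE 0.30, adjusted p = 0.0449, edgeR), a call that held in 4 of the 12 fits without 1 library and not with DESeq2 (adjusted p = 0.0902) or robust dispersion estimation (adjusted p = 0.118). The other 8 genes were not called.

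TCDD was compared with vehicle as the canonical AhR agonist. None of the 10 genes was called by edgeR with TMM factors and no replicate block, where 6.41% of all tested genes were called (4.50% higher, 1.90% lower), and DESeq2 called 0 as well. FOSB and EGR2 had an unadjusted p below 0.05. FOSB was at 1.31 and 0.956 CPM with TCDD, below the vehicle libraries, FOSL1 was at 1.58 and 1.25 CPM, and EGR2 was at 7.36 and 8.09 CPM, all below both vehicle libraries. Without the second vehicle library 3 of the 10 were called. FOS, FOSL2, JUN, JUNB and EGR1 overlapped between the groups. MYC, at 107 and 122 CPM with TCDD, and IER3, at 166 and 172 CPM, were just above their vehicle libraries.

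With RSV added to TCDD, 5 genes rose against TCDD alone and MYC fell, where 37.7% of all tested genes were called (18.6% higher, 19.1% lower). FOSB was at 8.31 and 5.94 CPM, 6.08-fold above TCDD alone, and FOSL1 was at 8.46 and 8.43 CPM against 1.58 and 1.25 CPM, 5.83-fold above it. EGR2 rose from 7.36 and 8.09 CPM to 42.8 and 37.6 CPM, a log2 fold change of 2.39 (SE 0.32, adjusted p = 4.56e-05, edgeR). JUNB (1.43, SE 0.22) and FOSL2 (1.21, SE 0.17) rose as well on the log2 scale, and FOSL2 reached its highest level here, at 117 and 106 CPM. MYC fell to 30.3 and 29.5 CPM, a log2 fold change of -1.94 (SE 0.13, adjusted p = 5.58e-08, edgeR). EGR1 was not called (0.73, SE 0.36, adjusted p = 0.125, edgeR), with a value of 0.07 under spike-in scaling, but was called in the fit of only the libraries compared. FOS, JUN and IER3, which were not called either, had log2 fold changes of 0.40, 0.47 and 0.29 that became -0.26, -0.19 and -0.39 under spike-in scaling. FOSL2 (0.54) and JUNB (0.76) were not called under that scaling.

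The 2 libraries of RSV+TCDD lay close together for these genes, with ratios of 0.987 to 1.40. Against RSV alone none of the 10 genes was called by edgeR with TMM factors or by DESeq2, where 5.70% of all tested genes were called (3.61% higher, 2.08% lower), and FOSL2 and MYC had an unadjusted p below 0.05. Under spike-in scaling all 10 log2 fold changes were negative and 3 were called, FOSB (-1.52, adjusted p = 0.0362), JUN (-1.20, adjusted p = 0.0401) and EGR1 (-1.21, adjusted p = 0.0398). For the interaction of RSV and TCDD none was called either, where 0.124% of all tested genes were called (0.00622% higher, 0.118% lower). DESeq2 called 0 there and gave no adjusted p for 2 genes, FOSB and FOSL1, and FOSL2 and EGR2 had an unadjusted p below 0.05 in edgeR. RSV+TCDD is compared here with a TCDD group whose label states 10 nM while its own label states 1 nM, so a difference in TCDD dose cannot be told apart from that of RSV in these comparisons. The comparisons that share the vehicle, Vem or RSV libraries are not independent of each other.

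The 10 genes ranged most between groups for EGR2, with a 27.3-fold gap between the highest and the lowest group mean, then FOSL1 (22.8-fold), IER3 (22.0-fold) and EGR1 (14.4-fold). FOSL2 ranged least, at 2.32-fold, followed by JUNB at 3.05-fold. MYC was ordered from TCDD through vehicle, RSV+TCDD, RSV and RSV+Vem to Vem with no overlap between neighbours, whereas EGR2 ran from RSV+TCDD and RSV, which overlapped, through vehicle, TCDD and RSV+Vem to Vem. Over the 12 libraries the genes whose log2 CPM was most like FOSL1 were GUSB, JMJD1C and PLP2 (Pearson's r of 0.977, 0.973 and 0.967). Those most like MYC were SEMA4C, EBF3 and POLD2 (0.991, 0.987 and 0.978), and those most like EGR1 were PCID2, BIRC7 and RP11-356I2.4 (0.965, 0.958 and 0.956). These values describe 12 libraries that share their treatments.

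Genes linked to the 10 were followed from 7 lists, whose counts are to be read against the shares of all tested genes called (27.0% lower and 25.4% higher with Vem, 20.4% lower and 20.5% higher with RSV). For RSV+Vem against Vem these shares were 18.7% lower and 19.2% higher. For the interaction of RSV and Vem they were 10.7% lower and 12.0% higher. The 14 ERK phosphatases and feedback genes included 13 that fell with Vem and 1, EPHA4, that was not called, with a list median of -3.23. ERK activity itself was not measured in these libraries. ETV4, an ETS factor, went from 115 and 112 CPM to 1.11 and 0.922 CPM, and DUSP6, the ERK phosphatase, from 111 and 98.5 CPM to 1.81 and 0.692 CPM. SPRY4, a feedback inhibitor of the pathway, went from 55.6 and 62.7 CPM to 1.67 and 0.615 CPM. With RSV alone 4 of the 14 rose and 4 fell, and their median was -0.12. Against Vem, 9 of 14 were higher in RSV+Vem and none lower, with DUSP6 at 14.5 and 11.9 CPM and SPRY4 at 13.8 and 13.7 CPM. The interaction of RSV and Vem was called in 11 of 14, all with a positive sign, including SPRY4 (3.39, SE 0.30, adjusted p = 3.04e-06, edgeR) and DUSP6 (2.66, SE 0.32, adjusted p = 2.92e-05, edgeR).

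The 28 tested of 30 other early response genes fell with Vem in 18 cases and rose in 2, with a median of -0.87. DUSP1, a phosphatase of MAP kinases, fell by 1.84 (SE 0.25), KLF10 by 1.82 (SE 0.27) and PLK3 by 1.70 (SE 0.27) on the log2 scale, and EGR3, a further EGR factor, had 112 and 26 counts in vehicle and 2 and 0 counts with Vem. With RSV 17 rose and 3 fell, with a median of 0.64. ARC had 10 and 3 counts in vehicle and 341 and 70 counts with RSV. It is among the 17, but it had few counts outside RSV and RSV+TCDD. ARC passed the filter on low counts through those groups, so its rise with RSV is not separate evidence. GADD45B rose by 4.35-fold, CSRNP1 by 3.63-fold and ZFP36, which promotes decay of mRNAs, by 2.83-fold. With TCDD 6 of the 28 fell and 1 rose, against 1.90% lower and 4.50% higher over all tested genes. EGR3 had 6 and 3 counts with TCDD. CYR61 was at 9.7 and 10.4 CPM with TCDD, against 44.3 and 16.3 CPM in vehicle. KLF2 fell by 1.30 (SE 0.35) and IER5 rose by 0.99 (SE 0.15) on the log2 scale with TCDD. In RSV+Vem 20 of the 28 were higher than with Vem alone and none lower, against 19.2% higher and 18.7% lower over all tested genes. The 20 included GADD45B (8.28-fold), KLF2 (4.35-fold) and IER5 (4.14-fold). With Vem alone GADD45B had only 18 and 12 counts and KLF2 23 and 21 counts.

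Of the 11 other dimer partners of AP-1, 3 fell and 2 rose with Vem, and 4 rose and 1 fell with RSV, 45.5% of the list each time against 52.4% and 40.9% of all tested genes. JDP2, a repressor that dimerises with JUN, was at 0.962 and 0.809 CPM in vehicle, 10.7 and 8.09 CPM with RSV and 20.3 and 17.9 CPM in RSV+Vem. ATF3, a stress-induced partner of JUN, was at 11 and 6.68 CPM in vehicle, 34.5 and 19.4 CPM with RSV and 64.1 and 58.1 CPM in RSV+Vem, so that, like JUN, both were highest in the combination. MAFF, a small MAF protein, had a log2 fold change of -4.46 with Vem (SE 0.33). In RSV+Vem, 7 of the 11 were higher than with Vem alone and none lower, against 19.2% higher and 18.7% lower over all tested genes.

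Of the 8 genes for serum response factor, its cofactors and the EGR corepressors, 4 fell and 1 rose with Vem. ELK3 and ELK4, both ternary complex factors, fell by 0.97 (SE 0.12) and 0.76 (SE 0.16) on the log2 scale. With RSV 2 fell, SRF by 0.41 and MKL2 by 0.39, each with an SE of 0.12, and none rose, 25% of the list against 40.9% of all tested genes.

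Of the 10 tested genes of the MYC family and MAX network, 3 rose and 1 fell with Vem, and 3 rose and 1 fell with RSV, 40% of the list each time and no more than over all tested genes. MXD4, which competes with MYC for MAX and represses its targets, was at 10.9 and 11.9 CPM in vehicle, 64.6 and 73.2 CPM with Vem, 46.9 and 36.5 CPM with RSV and 73.3 and 61.4 CPM in RSV+Vem. With TCDD, where MYC was highest, MXD4 was also above vehicle, at 21.2 and 21.2 CPM (0.89, SE 0.15, adjusted p = 0.00176, edgeR). Of 23 MYC target genes of ribosome production and growth, 14 fell and 2 rose with Vem, and 14 fell and 1 rose with RSV, with medians of -0.45 and -0.47. LDHA, a glycolytic enzyme, fell by 1.45 with Vem and 1.68 with RSV (SE 0.13 each) on the log2 scale. With Vem GNL3 fell by 1.26 (SE 0.10) and NOLC1 by 1.05 (SE 0.10), both nucleolar proteins, and with RSV TFRC, the transferrin receptor, fell by 1.06 (SE 0.13). FBL, which methylates ribosomal RNA, fell by 1.05 with Vem and 1.00 with RSV. Not all of the list went this way. ODC1 was at 204 and 225 CPM in vehicle, 305 and 259 CPM with Vem and 396 and 377 CPM with RSV. TFRC was at 993 and 926 CPM with Vem, above its 566 and 802 CPM in vehicle.

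Only 6 of the 15 AP-1 target genes in the table passed the filter on low counts, and LIF, IL8 and CD44 passed with few counts outside the RSV groups, so that no count over this list is given. IL8, a chemokine, was at 0.304 and 0.688 CPM in vehicle and 9.10 and 4.47 CPM with RSV, and HBEGF, an EGF-family growth factor, was at 11.1 and 11 CPM in vehicle and 40.0 and 25.4 CPM with RSV. In RSV+Vem, IL8 was at 2.77 and 2.14 CPM and HBEGF at 23.5 and 20.2 CPM, both between the vehicle and the RSV levels. LIF, a cytokine, had 4 and 0 counts in vehicle, 60 and 30 counts with RSV, and 0 in both RSV+Vem libraries. CD44, a hyaluronan receptor, had 8 and 6 counts in vehicle, 11 and 15 counts with RSV and 8 and 3 counts in RSV+Vem. HMGA1, a chromatin protein, fell with Vem by 0.80 (SE 0.10) on the log2 scale.

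**Figure D4:**
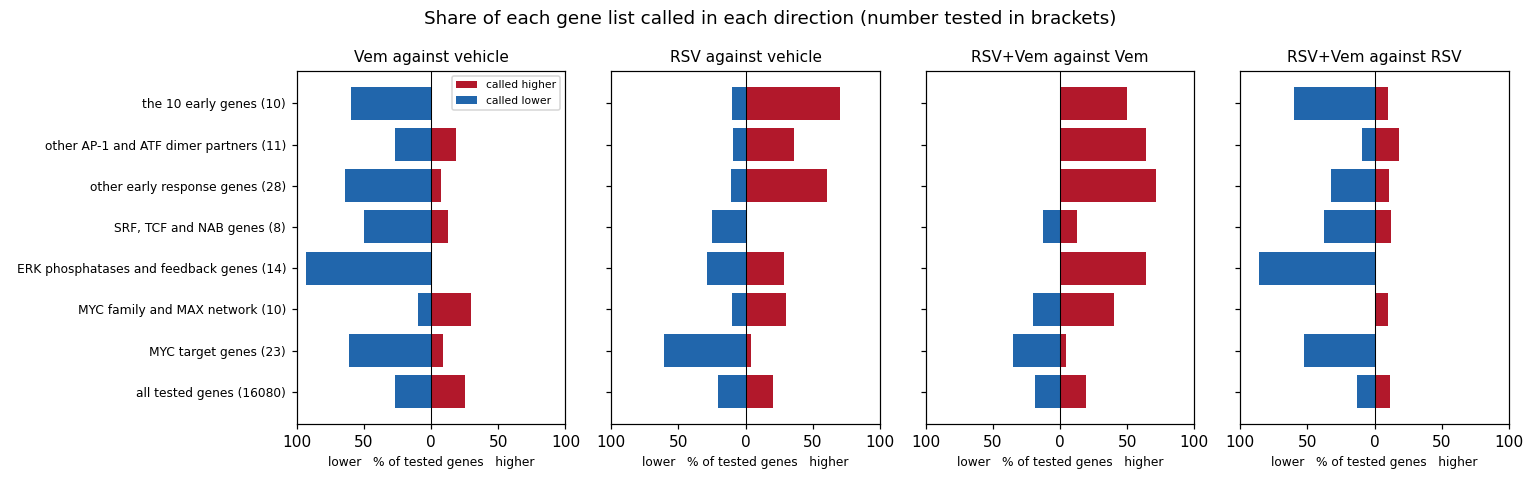
Share of the tested genes of 6 lists and of the 10 early genes called higher (right) or lower (left) in 4 comparisons, as a percentage of the tested genes given in brackets, with all 16080 tested genes at the foot. The ERK phosphatases and feedback genes are called lower in 13 of 14 with Vem, and the MYC target genes in 14 of 23 with Vem and 14 of 23 with RSV.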

How the data were processed

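RNA from 501Mel cells was sequenced in 12 libraries (TruSeq Stranded mRNA, paired-end). Per the labels and the study's methods, the authors aligned reads to hg19 with STAR 2.4.0a and counted them per gene name with featureCounts (Subread 1.5.0-p3), using strand, and deposited raw counts without normalization. The release of the gene annotation is not given in the sources used here. Sense and antisense transcripts of overlapping genes (ERCC1 with FOSB, HCG20 and IER3-AS1 with IER3, FOSL2-AS1, HOOK2 with JUNB, CASC11 with MYC) were thus meant to be separated by strand, but the stated forward setting is not the one this kit usually needs, and its effect on these overlapping genes was not tested. Exon lengths and gene positions were taken from GENCODE 44 lifted to GRCh37, and promoters from RefSeq on GRCh38.p14.

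The 96 control sequences (92 of them ERCC RNAs, 0.031% to 0.0936% of counts) were removed, genes were filtered with filterByExpr, and all 12 libraries entered a single quasi-likelihood fit in edgeR 4.0.16 (R 4.3.3), by group, with TMM factors, default dispersion estimation and Benjamini-Hochberg adjustment over 16080 genes. Standard errors were derived from the F statistic. The members and the gene lists were chosen with earlier results of these data known. The 10 genes were all named, and up to 4 examples per list were taken by the largest absolute change among its called genes. With 2 libraries against 2, the smallest p of an exact two-sided permutation test is 0.333, so only the fit across all genes was used. The fit was also run on simulated counts with a single spread shared by all genes. That run does not bear on the wide replicate gaps of these genes in vehicle and RSV. The alternatives were RLE factors, DESeq2 1.42.0, no filter, a replicate block, a minimum of 10 counts in each library, a fit of only the libraries compared, a threshold of 1 on the log2 fold change, spike-in scaling, and leaving out each library. Robust dispersion estimation was added after its results and those of the default had both been seen.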

Additional observations from a re-analysis of the deposited data

Results flagged for a closer look

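The effect of RSV on MYC differed with and without Vem, by the interaction term of edgeR's quasi-likelihood test. RSV changed MYC by -2.12 (log2) without Vem and by 0.15 with Vem, and the difference was 2.27 (SE 0.20, adjusted p = 3.04e-06). It was called in each of the 12 fits without 1 library, at 2.05 to 2.53, and with spike-in scaling it was 2.39 and not called (adjusted p = 0.143).

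IER3 also differed, with RSV changing it by 0.47 without Vem and by 1.34 with Vem, a difference of 0.87 (SE 0.30, adjusted p = 0.0449). This call held in 4 of 12 fits without 1 library and was lost without the first vehicle, second RSV, or any Vem, RSV+Vem or TCDD library, and the value ranged from 0.53 to 1.20.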

How the results depend on the processing

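The counts of the 10 genes called depended on the setting as follows. For Vem against vehicle (6 called) no alternative moved the count by more than 1.5 times, and leaving out a library gave 6 to 8. For RSV against vehicle (8 called), DESeq2 gave 5, robust dispersion estimation 5, a threshold of 1 on the log2 fold change 3, spike-in scaling 3, and leaving out a library 4 to 10 (4 without the second vehicle or the first RSV library). For TCDD against vehicle (0), no filter gave 4, a replicate block 2 (FOSB at -1.04 and EGR2 at -0.95), and leaving out a library 0 to 3 (3 without the second vehicle library). For RSV+Vem against Vem (5), robust dispersion estimation gave 3, the threshold of 1 gave 0, spike-in scaling 2, and leaving out a library 3 to 7 (3 without either Vem or the first RSV+Vem library). For RSV+Vem against RSV (7), the threshold of 1 gave 4, and leaving out a library 6 to 8. For RSV+TCDD against TCDD (6), no filter gave 10 and only the libraries compared gave 10, and leaving out a library 6 to 7. For RSV+TCDD against RSV (0), no filter gave 1, spike-in scaling 3, and leaving out a library 0 to 2. For the interaction of RSV and Vem (2), DESeq2, robust dispersion estimation, only the libraries compared and the threshold of 1 each gave 1, no filter 4, spike-in scaling 0, and leaving out a library 1 to 4. For the interaction of RSV and TCDD (0), no filter gave 3, and leaving out a library 0 to 2. The cause of these shifts was not tested. Robust estimation was chosen after seeing the data.

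Values near 0 changed sign. With Vem, FOSL2 went from 0.05 to -0.60 and JUN from 0.32 to -0.34 under spike-in scaling, and over fits without 1 library they ranged from -0.26 to 0.46 and from -0.17 to 1.07 (negative without the second vehicle library, FOSL2 also without the first Vem library). With RSV, FOS (0.22) ranged from -0.16 to 0.70 and EGR1 (0.14) from -0.49 to 1.27, negative without the second vehicle or the first RSV library. For RSV+Vem against Vem, EGR1 (0.01) was -0.00 with RLE factors, -0.06 with DESeq2 and -0.06 with a replicate block, and ranged from -0.48 to 0.26, negative without the second Vem or the first RSV+Vem library. Against RSV, FOSL2 ranged from -0.23 to 0.06 and JUNB from -0.75 to 0.21, positive without the first RSV library. For RSV+TCDD against TCDD, FOS, JUN and IER3 went to -0.26, -0.19 and -0.39 under spike-in scaling.

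Of the 34 gene calls, 34 held with RLE factors, 34 with a replicate block (which also called FOSB with Vem, at -0.86, and FOSB and FOSL2 for RSV+Vem against Vem, at 0.96 and 0.45), 29 with DESeq2, 27 with robust dispersion estimation and 21 with spike-in scaling. Of 1323 list counts under alternatives, 1101 stayed within 1.5 times. The replicate numbers did not pair the libraries in one way over all groups. Of 15 pairs of groups 6 had a correlation of deviations above 0.1, 3 were below -0.1, and the range was -0.34 to 0.39. The groups with RSV did correlate with each other by replicate number. The values were 0.394 for RSV with RSV+Vem, 0.338 for RSV with RSV+TCDD and 0.297 for RSV+Vem with RSV+TCDD. Whether libraries of these groups shared a batch was not tested. With 2 libraries per group, few counts limit FOSL1 and FOSB most.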
